A study of Mus musculus with 12 samples.

Results

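Collagen genes were followed across 12 mouse liver RNA libraries from a YAP model and a MYC model of liver overgrowth. They were taken as every symbol of the form Col, number, a, number, which gave 44 of the 48576 genes in the count files. Of the 44 genes, 38 had at least 10 counts summed over the libraries. The other 6, Col2a1, Col6a4, Col9a1, Col19a1, Col22a1 and Col28a1, had between 1 and 9 counts and were left aside. A filter on low counts kept 35 for testing, and Col9a2, Col9a3 and Col26a1 were counted but not tested.

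Collagens are triple-helical proteins of the extracellular matrix, each assembled from chains that separate genes encode. Fibrillar collagens (types I, II, III, V, XI, XXIV and XXVII) build the cables of connective tissue and of liver scars, where hepatic stellate cells and portal fibroblasts are their main known sources. Type IV collagen forms the sheet-like network of basement membranes, which line bile ducts and blood vessels. Type VI forms beaded filaments, and the FACIT group (fibril-associated collagens with interrupted triple helices) sits on the surface of fibrils. The multiplexins Col15a1 and Col18a1 lie in basement membrane zones, and the transmembrane collagens span the cell membrane. By these classes the tested genes were 10 fibrillar, 6 type IV, 5 type VI, 4 FACIT, 3 short-chain network, 2 multiplexin and 4 transmembrane collagens, with Col7a1, the anchoring fibril collagen, as the remaining 1.

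In the YAP model, mice of the genotype Col-TRE-YAPS127A; Rosa26-LSL-rtTA carried a doxycycline-controlled copy of YAPS127A, a form of the transcriptional co-activator YAP that resists inhibitory phosphorylation, and a Cre-dependent rtTA. Cre came from an AAV with the TBG promoter, which is active in hepatocytes, given at 8 to 10 weeks of age. The induced groups received doxycycline for 2 weeks (n = 2 libraries) or 4 weeks (n = 3). The YAP controls (n = 2) had the same genotype without induction, and the labels do not say whether they received the AAV or doxycycline. In the MYC model, LAP-tTA; TRE-MYC offspring (n = 3) expressed MYC from a liver-specific driver after doxycycline was withdrawn from their mothers at about embryonic day 8. MYC controls (n = 2) carried LAP-tTA alone on the same doxycycline schedule. Livers of the MYC model were collected 4 weeks after birth, so they were younger than those of the YAP model. The labels call the material hepatocytes, whereas the extraction notes describe total liver RNA. They number the replicates without saying that each came from a separate animal, so p-values measure the spread between libraries. In bulk RNA, more cells of a collagen-producing type and more RNA per cell cannot be told apart.

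Libraries held between 12511170 and 17690798 counts. Levels are CPM, counts scaled to library size with TMM factors. Fold changes are on the log2 scale with their SE, and a gene was called higher or lower at an edgeR adjusted p under 0.05 over 17964 tested genes. Hepatocyte markers were present in every library. Xist and Y-linked genes gave a female pattern in replicate 2 at 2 weeks and in all 4-week libraries, and a male pattern in the other 8. At 4 weeks, this pattern and the induction are separated through the pair of 2-week libraries alone. With the sex pattern in the model, the 2-week comparison sets replicate 1 alone against the controls. In that model 0 collagens were called higher at 4 weeks, and the share of all tested genes is not given. The 4-week replicate 1 also stood apart. Its quiescent stellate cell markers summed to 117 CPM, against 521 and 272 CPM in replicates 2 and 3. Its cholangiocyte markers summed to 396 CPM, against 3030 and 3070 CPM. Skeletal muscle markers were at 1140 and 1220 CPM at 2 weeks, between 30.4 and 85.2 CPM at 4 weeks and at 182 to 201 CPM in YAP controls, with 10 and 12 of 16 markers at 0 in the controls.

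Promoter stretches are printed for 4 collagens that stand for the classes compared: Col4a5 and Col4a6, whose genes diverge from neighbouring starts on the X chromosome, and Col3a1 and Col1a2, whose proteins are major chains of scar fibrils. YAP acts through TEAD factors, whose core motif is CATTCC, searched on both strands. On the opposite strand it reads GGAATG. Each stretch runs 5′ to 3′ on the strand of the gene from 250 bases before the start through the first 10 bases, from RefSeq on GRCm38.p6, with the motif in capitals. Positions are chrX:141475169-141475428 (plus strand) for Col4a5, chrX:141474067-141474326 (minus) for Col4a6, chr1:45311288-45311547 (plus) for Col3a1 and chr6:4505368-4505627 (plus) for Col1a2.
Col4a5: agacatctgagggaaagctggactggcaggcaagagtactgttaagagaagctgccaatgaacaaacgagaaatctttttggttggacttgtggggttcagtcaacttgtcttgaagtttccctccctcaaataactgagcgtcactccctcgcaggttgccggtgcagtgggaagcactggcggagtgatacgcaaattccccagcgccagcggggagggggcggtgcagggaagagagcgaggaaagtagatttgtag
Col4a6: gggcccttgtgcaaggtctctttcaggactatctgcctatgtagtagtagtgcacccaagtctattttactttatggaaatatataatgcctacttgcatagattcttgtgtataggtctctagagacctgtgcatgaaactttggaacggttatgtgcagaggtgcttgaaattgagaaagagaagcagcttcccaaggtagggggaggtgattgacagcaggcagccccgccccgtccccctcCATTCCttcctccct
Col3a1: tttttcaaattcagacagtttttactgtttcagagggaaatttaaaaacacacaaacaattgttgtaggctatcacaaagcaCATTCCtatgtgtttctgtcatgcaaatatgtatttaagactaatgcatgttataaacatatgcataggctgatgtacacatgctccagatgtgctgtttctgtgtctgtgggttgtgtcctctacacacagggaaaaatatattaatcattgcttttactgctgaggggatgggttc
Col1a2: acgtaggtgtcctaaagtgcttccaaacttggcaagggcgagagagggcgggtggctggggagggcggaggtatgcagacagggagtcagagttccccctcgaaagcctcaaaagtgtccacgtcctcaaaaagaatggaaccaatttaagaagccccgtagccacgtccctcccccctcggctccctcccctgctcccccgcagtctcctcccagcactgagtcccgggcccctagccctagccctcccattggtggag
Col4a6 and Col3a1 each held the motif and the stretches of Col4a5 and Col1a2 did not. In windows from 250 bases before to 50 after the start, CATTCC on either strand was in 5 of 33 collagen windows (15.2%), which belong to 31 genes, and in 14.7% of all 32851 windows. The 5 were windows of Col3a1, Col4a6, Col6a2, Col18a1 and Col20a1, and Col6a2 and Col18a1 each also had a window without it. The E-box CACGTG, bound by MYC with MAX, was in 0 of 33 collagen windows and in 7.15% of all windows. Of the 5 genes with CATTCC, Col4a6 was the only one called at 4 weeks, and the motif was absent from the window of Col4a5. No window was available for Col1a1, Col4a3, Col5a2, Col12a1 or Col14a1, so these were not searched. All of them but Col14a1 were called higher at 4 weeks. A match is a run of letters and not evidence of binding.

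After 2 weeks of YAP induction, 10 of 35 tested collagens rose and 2 fell. Among all tested genes 15.1% rose and 12.7% fell, and 27.8% were called in either direction, against 34.3% of the collagens. After 4 weeks, 13 collagens rose and 3 fell, or 45.7% called, where 18.1% of all tested genes rose, 15.7% fell and 33.8% were called. Both times share the same 2 controls. The median log2 fold change of the collagens was 1.03 at 2 weeks and 1.05 at 4 weeks (0.92 and 0.85 with genes absent from a group at their bound), beside 0.1 and 0.18 for all tested genes. In MYC livers 0 collagens rose and 7 fell, or 20.0% called, where 9.76% of all tested genes rose, 8.54% fell and 18.3% were called. DESeq2 also called 0 collagens higher with MYC, and 0 reached an unadjusted p under 0.05 upward. By edgeR 11 collagens passed that level in either direction, as did 5913 of all 17964 tested genes. The median collagen log2 fold change with MYC was -0.59, beside 0.02 for all tested genes. Scaling by total counts moved the median of all genes by 0.54 at 2 weeks, 0.73 at 4 weeks and 0.41 with MYC, and then gave 13 higher and 0 lower collagens at 2 weeks (29.1% and 5.45% of all tested genes), 18 and 2 at 4 weeks (43.7% and 4.99%), and 0 and 4 with MYC (18.3% and 4.14%).

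**Figure D1:**
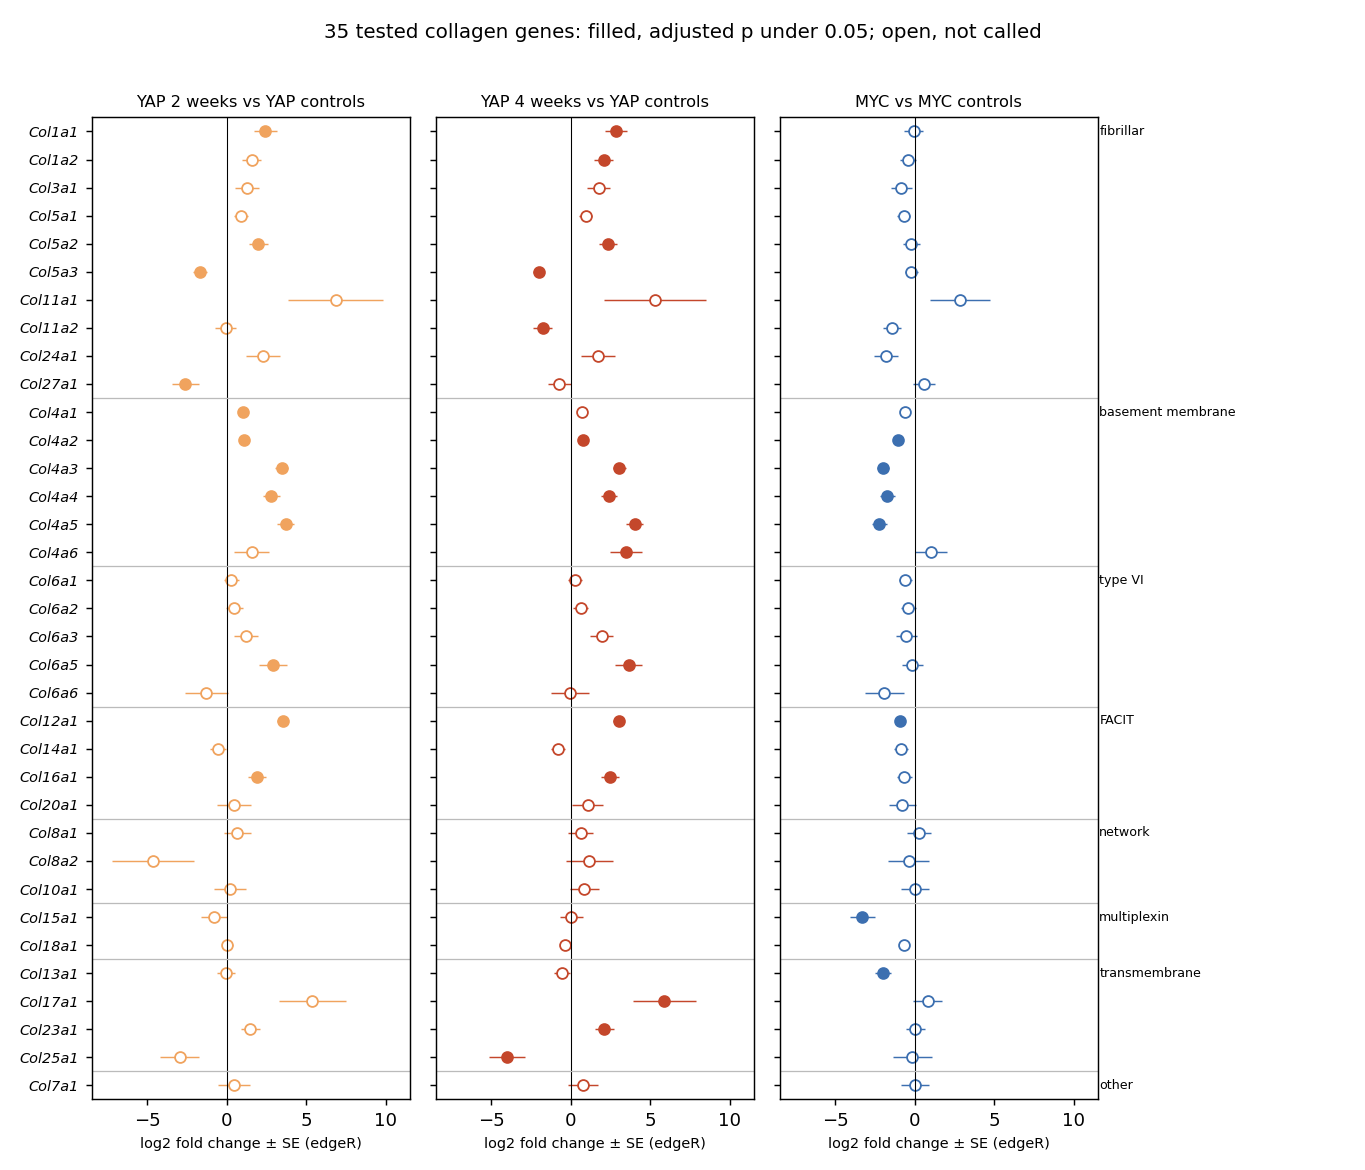
Log2 fold changes with SE for the 35 tested collagens, grouped by class from top to bottom, for 2 weeks of YAP, 4 weeks of YAP and MYC, each against its own controls; filled points passed an edgeR adjusted p under 0.05. Type IV genes lie to the right in the YAP panels (5 of 6 filled in each) and 4 of 6 are filled to the left in the MYC panel.

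Type IV collagens were called most often by share of class in both models. At 2 weeks 5 of 6 rose and Col4a6 did not pass, with a class median log2 fold change of 2.18. At 4 weeks 5 of 6 rose and Col4a1 did not pass, with a median of 2.73. With MYC 4 of 6 fell, and Col4a1 and Col4a6 did not pass, with a median of -1.39. The genes lie in 3 head-to-head pairs: Col4a1 (chromosome 8, 11198423 to 11312826) with Col4a2 (11312805 to 11449287), Col4a3 (chromosome 1, 82586921 to 82722059) with Col4a4 (82448423 to 82586849), and Col4a5 (X chromosome, 141475385 to 141689234) with Col4a6 (141165403 to 141474076), in GENCODE vM21 on GRCm38.

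Col4a3, Col4a4 and Col4a5 encode the chains of the α3α4α5 network, best known from the kidney glomerulus and the lung. Col4a3 stood at 26.8 and 28.3 CPM after 2 weeks and at 25.1, 18.3 and 18.9 CPM after 4 weeks, against 3.38 and 1.59 CPM in YAP controls. Every induced library lay above both controls, and the libraries within each time were close together. Col4a3 rose by 3.46 ± 0.41 on the log2 scale at 2 weeks (adjusted p = 0.000265) and 3.05 ± 0.39 at 4 weeks (adjusted p = 0.000308). In MYC livers it stood at 0.773, 1.05 and 1.86 CPM, against 4.59 and 5.22 CPM in MYC controls. The groups did not overlap here either, and Col4a3 fell by 1.99 ± 0.37 on the log2 scale (log2 fold change -1.99, adjusted p = 0.00516). It was the only collagen called with MYC that kept its call when each library was left out in turn, with adjusted p between 0.00402 and 0.0487. A non-coding transcript on the opposite strand, C430014B12Rik, shares 563 exonic bases with Col4a3 (5.65% of its exons), and the strand setting of the counting is not stated.

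Col4a4 was at 13.7 and 22 CPM after 2 weeks and 20.1, 8.31 and 12.7 CPM after 4 weeks, against 2.9 and 2.23 CPM in YAP controls. Induced and control libraries did not overlap. It rose by 2.8 ± 0.54 at 2 weeks (adjusted p = 0.00331) and by 2.41 ± 0.51 at 4 weeks (adjusted p = 0.00455, and 0.0507 without YAP control replicate 2). With MYC it was at 3.09, 1.19 and 3.13 CPM, against 6.53 and 9.89 CPM in MYC controls. All MYC libraries were lower, and the log2 fold change was -1.72 ± 0.46 (adjusted p = 0.024). Leaving out MYC replicate 2, MYC control replicate 1 or MYC control replicate 2 gave adjusted p = 0.069, 0.0686 and 0.177.

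Col4a5 gave the largest type IV rises. It was at 22.9 and 51 CPM after 2 weeks and 37.4, 49.9 and 51.2 CPM after 4 weeks, against 3.47 and 2.23 CPM in YAP controls. The lowest induced library was several times above the higher control. The log2 fold change was 3.69 ± 0.56 at 2 weeks (adjusted p = 0.0012) and 4.01 ± 0.55 at 4 weeks (adjusted p = 0.00055). With MYC Col4a5 was at 4.34, 1.26 and 1.8 CPM, against 10.6 and 12.8 CPM in MYC controls, without overlap. It fell by a log2 fold change of -2.23 ± 0.47 (adjusted p = 0.0103, and 0.054 and 0.0772 without MYC control replicates 1 and 2). Its divergent neighbour Col4a6, whose chain pairs with that of Col4a5 in basement membranes of smooth muscle, was at 0.637 and 0.895 CPM after 2 weeks and 0.444, 5.16 and 3.22 CPM after 4 weeks, against 0.0965 and 0.424 CPM in YAP controls. The 4-week replicate 1 was barely above the higher control, and replicates 2 and 3 were well above it. Col4a6 rose by 3.48 ± 1.02 at 4 weeks (adjusted p = 0.0223, and 0.148, 0.0589 and 0.0675 without YAP control replicate 1, YAP control replicate 2 or 4-week replicate 2) and was not called at 2 weeks (log2 fold change 1.56 ± 1.1, adjusted p = 0.313). With MYC it was at 0.595, 0.35 and 0.58 CPM, against 0.265 and 0.234 CPM in MYC controls, and was not called (log2 fold change 1.02 ± 1.02, adjusted p = 0.533).

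Col4a1 and Col4a2 encode the chains of the α1α1α2 network found in nearly all basement membranes. Col4a1 was at 165 and 207 CPM after 2 weeks and 117, 202 and 123 CPM after 4 weeks, against 82.5 and 99.6 CPM in YAP controls. Col4a2 was at 159 and 184 CPM after 2 weeks and 113, 189 and 125 CPM after 4 weeks, against 65 and 101 CPM in YAP controls. Every induced library lay above both controls for each gene, by less than for Col4a3 to Col4a5. At 2 weeks Col4a1 rose by 1.03 ± 0.31 (adjusted p = 0.0279) and Col4a2 by 1.05 ± 0.29 (adjusted p = 0.0202). At 4 weeks Col4a2 rose by 0.78 ± 0.27 (adjusted p = 0.0428), and Col4a1 missed the threshold (adjusted p = 0.0795). The 2-week calls were lost without YAP control replicate 1 (adjusted p = 0.154 for both) and without 2-week replicate 2 (0.145 for Col4a1 and 0.102 for Col4a2), and that of Col4a1 also without YAP control replicate 2 (0.0808). The 4-week call of Col4a2 was lost without YAP control replicate 1 (adjusted p = 0.292), 4-week replicate 2 (0.133) or 4-week replicate 3 (0.0556). In MYC livers Col4a2 was at 106, 84.5 and 124 CPM, against 204 and 232 CPM in MYC controls. It fell by a log2 fold change of -1.06 ± 0.26 (adjusted p = 0.017, and 0.0662, 0.0756 and 0.118 without MYC replicate 2, MYC control replicate 1 or MYC control replicate 2). Col4a1 was at 123, 136 and 194 CPM in MYC livers, against 199 and 260 CPM in MYC controls, and was not called (adjusted p = 0.15).

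**Figure D2:**
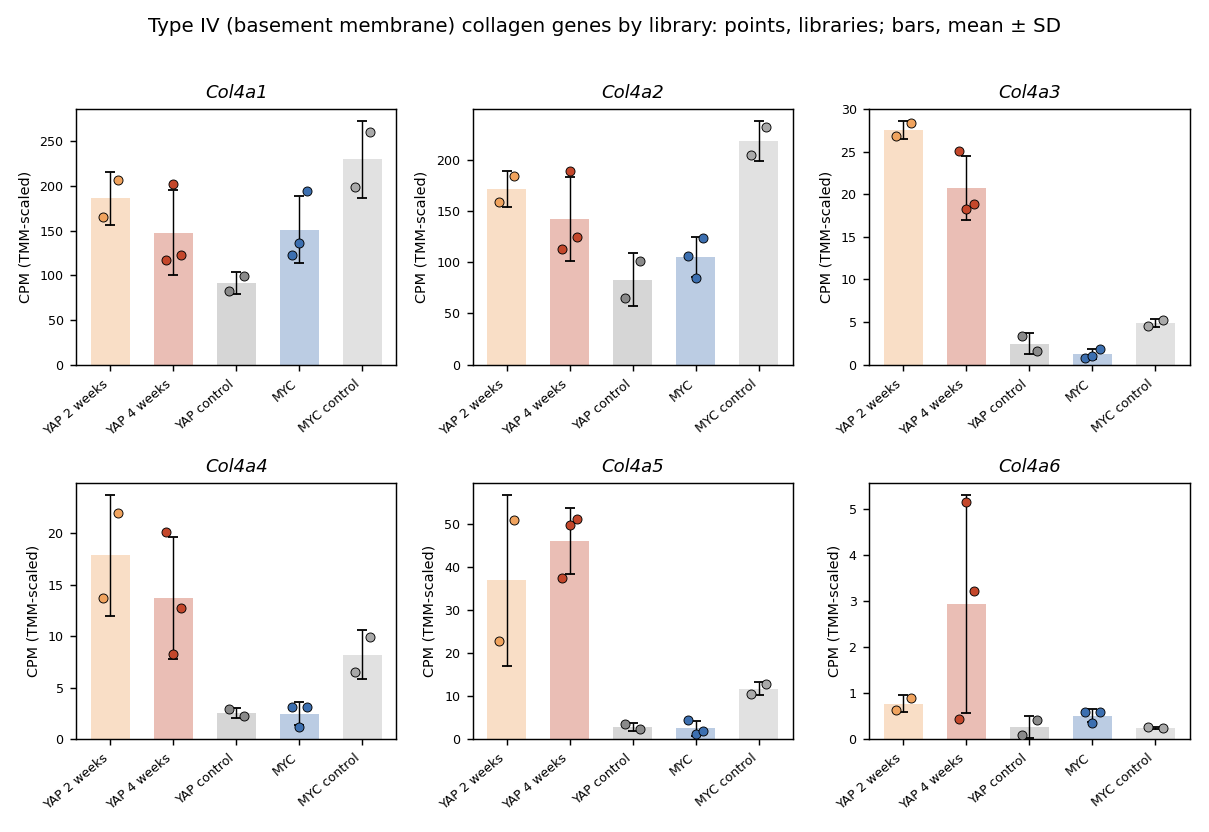
TMM-scaled CPM of the 6 type IV collagen genes in each library (points) with group mean and SD (bars), for YAP at 2 and 4 weeks, YAP controls, MYC and MYC controls, each panel with its own axis from 0. For Col4a3 the induced libraries sit between 18.3 and 28.3 CPM, and those of MYC livers at or under 1.86 CPM.

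Dividing CPM by exon length (all annotated exons of a gene joined) allowed levels to be set beside each other across genes. On this scale Col4a3, Col4a4 and Col4a5 together made up 13.8 and 18.3% of type IV after 2 weeks and 23.3, 15.1 and 23.1% after 4 weeks, against 5.13 and 2.38% in YAP controls. In MYC livers their share was 3.03, 1.29 and 1.64%, against 4.41 and 4.57% in MYC controls. The share was thus higher in every induced YAP library, and lower in every MYC library, than in the matching controls. The ratio of Col4a1 to Col4a2 per length was 0.925 and 0.997 after 2 weeks and 0.912, 0.952 and 0.868 after 4 weeks, against 1.13 and 0.874 in YAP controls. In MYC livers it was 1.03, 1.42 and 1.39, above both MYC controls at 0.864 and 0.994.

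Among fibrillar collagens 2 of 10 rose and 2 fell at 2 weeks, and 3 rose and 2 fell at 4 weeks. The class medians were 1.42 and 1.72 (1.32 at 4 weeks with Col11a1, absent from the controls, at its bound). The 25 non-fibrillar collagens had 8 higher and 0 lower at 2 weeks and 10 higher and 1 lower at 4 weeks, with medians of 0.67 and 0.85 (0.48 and 0.78 with bounds). With MYC 0 of 10 fibrillar collagens were called by edgeR or by DESeq2, against 7 called lower by edgeR among the 25 others. At an unadjusted edgeR p under 0.05, 2 fibrillar collagens were lower, where 5913 of all 17964 tested genes passed in either direction. The fibrillar median with MYC was -0.33, beside 0.02 for all tested genes. With total-count scaling these became 0.09 and 0.43, so the fibrillar median stayed below that of all genes.

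Col1a1 and Col1a2 encode type I collagen, the main fibre of scar tissue. Col1a1 (chromosome 11, 94936224 to 94953042) was at 57.5 and 149 CPM after 2 weeks and 51.1, 245 and 123 CPM after 4 weeks, against 14 and 25 CPM in YAP controls. All induced libraries were above both controls, with a wide spread within each time. Col1a1 rose by 2.41 ± 0.72 at 2 weeks (adjusted p = 0.0349) and 2.84 ± 0.71 at 4 weeks (adjusted p = 0.0139). Without YAP control replicate 1 the adjusted p was 0.179 at 2 weeks and 0.104 at 4 weeks, without YAP control replicate 2 it was 0.0901 and 0.055, and without 2-week replicate 2 it was 0.215 at 2 weeks. Col1a2 (chromosome 6, 4504814 to 4541544) was at 29.2 and 64.6 CPM after 2 weeks and 23.5, 115 and 59.8 CPM after 4 weeks, against 13.5 and 18.3 CPM in YAP controls. The order of the libraries was the same as for Col1a1 within each induced group. Col1a2 rose by 2.06 ± 0.59 at 4 weeks (adjusted p = 0.024, and 0.143 and 0.0922 when the first or the second YAP control was dropped) and was not called at 2 weeks (log2 fold change 1.56 ± 0.61, adjusted p = 0.0846).

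Per exon length, Col1a1 exceeded Col1a2 by 3.72 and 4.37 times after 2 weeks and 4.12, 4.02 and 3.9 times after 4 weeks, against 1.96 and 2.58 times in YAP controls. The ratio was 2.47, 2.56 and 4.29 in MYC livers, against 2.4 and 2.51 in MYC controls. Induced YAP libraries did not overlap their controls in this ratio, whereas MYC replicate 3 alone stood above the MYC controls by more than their spread. The exons of Col1a2 include alternative transcripts, so the absolute ratio is not a ratio of protein chains.

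Col3a1 (chromosome 1, 45311538 to 45349706), the type III chain laid down early in scars, was at 89.2 and 180 CPM after 2 weeks and 45.4, 368 and 143 CPM after 4 weeks, against 45.1 and 66.2 CPM in YAP controls. The 4-week replicate 1 lay between the controls, and the other induced libraries were above them. Col3a1 was not called at 2 weeks (log2 fold change 1.28 ± 0.75, adjusted p = 0.234) or 4 weeks (1.74 ± 0.72, adjusted p = 0.0889), and without 4-week replicate 1 it was (2.2, adjusted p = 0.0073). Col5a2 (chromosome 1, 45374321 to 45503282), a chain of the type V collagen that starts fibrils, was at 17.2 and 33.2 CPM after 2 weeks and 11.3, 55.1 and 30.1 CPM after 4 weeks, against 6.47 and 6.36 CPM in YAP controls. All induced libraries were above both controls. It rose by 1.98 ± 0.59 at 2 weeks (adjusted p = 0.0322) and 2.33 ± 0.57 at 4 weeks (adjusted p = 0.0116). Without YAP control replicate 1 the adjusted p was 0.136 and 0.0773, without YAP control replicate 2 it was 0.142 and 0.0802, and without 2-week replicate 2 it was 0.189 at 2 weeks. Its partner chain Col5a1 was not called at 2 weeks (adjusted p = 0.144) or 4 weeks (adjusted p = 0.101).

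Col5a3, the least common type V chain, went the other way. It was at 9.91 and 7.16 CPM after 2 weeks and 6.79, 3.9 and 9.56 CPM after 4 weeks, against 26.9 and 28.2 CPM in YAP controls. All induced libraries were well below the controls, which themselves stood above the MYC controls at 3.53 and 4.05 CPM. The log2 fold change was -1.69 ± 0.42 at 2 weeks (adjusted p = 0.0118) and -2.03 ± 0.37 at 4 weeks (adjusted p = 0.00204). The 2-week call was lost without YAP control replicate 1, YAP control replicate 2 or 2-week replicate 2 (adjusted p = 0.05, 0.0554 and 0.0977). Col27a1, a fibrillar collagen of cartilage, was at 4.88 and 7.34 CPM after 2 weeks and 2.92, 35.2 and 30.1 CPM after 4 weeks, against 32.3 and 42.5 CPM in YAP controls. The 2-week libraries and 4-week replicate 1 were low, and the other 4-week libraries were near the controls. Col27a1 fell at 2 weeks (log2 fold change -2.61 ± 0.84, adjusted p = 0.0467), a call lost with any of the 4 libraries left out (adjusted p = 0.0997 and 0.147 when the first or the second YAP control was dropped, 0.196 and 0.152 when a 2-week library was), and was not called at 4 weeks (adjusted p = 0.464). Col11a2, a chain of cartilage fibrils, was at 0.19, 0.516 and 0.611 CPM at 4 weeks, against 0.869 and 2.23 CPM in YAP controls, without overlap. It fell at 4 weeks (log2 fold change -1.78 ± 0.61, adjusted p = 0.0421), and the adjusted p was 0.385, 0.0938, 0.0724 and 0.0552 without YAP control replicate 2 or 4-week replicates 1, 2 and 3. Col5a3 and Col11a2 were singled out after their values were seen. The low fibrillar genes Col11a1 and Col24a1 reached at most 1.73 and 1.17 CPM in any library and were not called in any comparison with controls. Col11a1 had no counts in YAP controls, which makes its mean at least 3.2-fold higher at 2 weeks and at least 1.08-fold higher at 4 weeks against a floor of 3 counts per library.

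**Figure D3:**
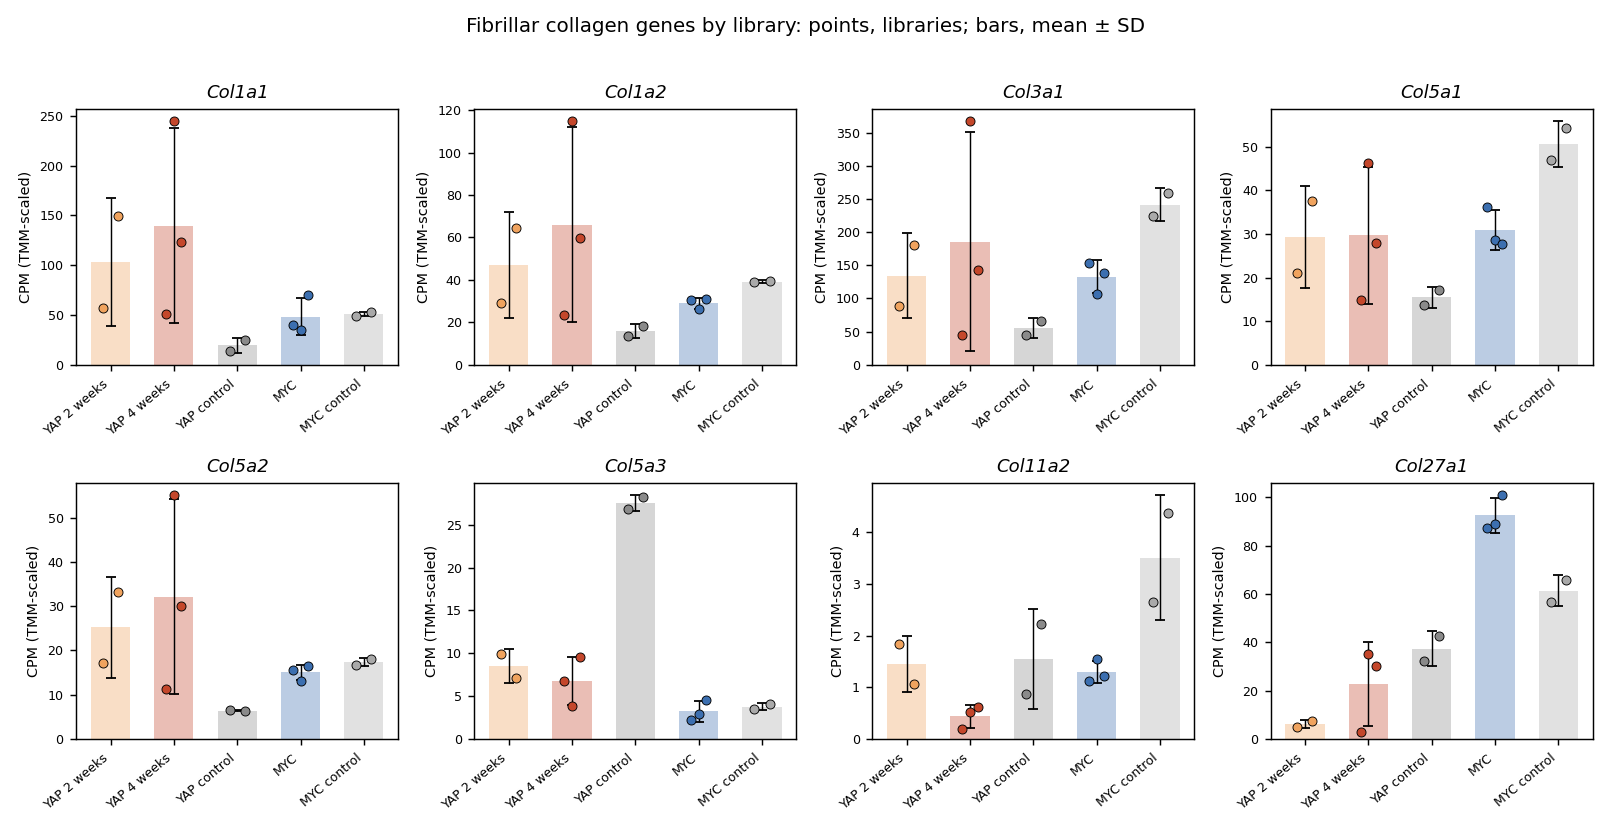
TMM-scaled CPM of 8 fibrillar collagen genes in each library (points) with group mean and SD (bars), groups in the order YAP at 2 weeks, YAP at 4 weeks, YAP controls, MYC and MYC controls, each panel from 0. Col1a1 reaches 245 CPM in a 4-week library against at most 25 CPM in YAP controls, and Col5a3 shows the opposite pattern.

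In the MYC model the fibrillar genes stayed closer to their controls. Col1a1 was at 39.6, 35.3 and 69.7 CPM in MYC livers, against 49.2 and 52.7 CPM in MYC controls, with overlap (adjusted p = 0.955). Col1a2 was at 30.3, 26.1 and 30.8 CPM, against 38.8 and 39.6 CPM in MYC controls, lower in all 3 without passing (adjusted p = 0.626). Col3a1 was at 154, 106 and 139 CPM, against 224 and 259 CPM in MYC controls, again lower in all 3 without passing (adjusted p = 0.411). These p-values do not show that the levels were alike. Col5a2 was at 15.6, 13.2 and 16.5 CPM, against 16.8 and 18.1 CPM in MYC controls (adjusted p = 0.823).

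Cell type markers moved with some of these values, and their part in them was not tested. The 12 quiescent stellate cell markers summed to 273 and 283 CPM at 2 weeks and 117 to 521 CPM at 4 weeks. YAP controls were at 399 to 468 CPM. The list covers the quiescent state, so lower sums cannot be read as fewer stellate cells. Of the 12, 1 rose and 0 fell at 2 weeks, and 0 rose and 4 fell at 4 weeks. The 9 portal fibroblast markers summed to 29.7 and 41.6 CPM at 2 weeks and 19.2 to 62 CPM at 4 weeks, against 14.9 and 15.5 CPM in YAP controls, where Gli1 and Pi16 were at 0 in both libraries. Of the 8 tested, 2 rose at 2 weeks and 3 at 4 weeks. The 6 myofibroblast markers summed to 50.5 and 57.9 CPM at 2 weeks and 19.9 to 31.2 CPM at 4 weeks, against 28.3 and 54.5 CPM in YAP controls. The 8 cholangiocyte markers summed to 565 and 1180 CPM at 2 weeks and 396 to 3070 CPM at 4 weeks, against 115 and 139 CPM in YAP controls, where Cldn4 was at 0 in both libraries. The 8 Kupffer cell and macrophage markers summed to 1130 and 1470 CPM at 2 weeks and 434 to 889 CPM at 4 weeks, against 196 and 209 CPM in YAP controls, and 6 rose at 2 weeks and 4 at 4 weeks. Of 8 hepatocyte markers 4 fell at 2 weeks and 5 at 4 weeks. Their sum was 78600 and 63000 CPM at 2 weeks, which overlapped 74700 and 63800 CPM in YAP controls. At 4 weeks it was 60900, 31800 and 31000 CPM. The mitochondrial share of counts was 7.67 to 13.9% in induced livers, against 19.3 and 19.6% in YAP controls. In MYC livers quiescent stellate cell markers summed to 181 to 492 CPM, against 580 to 622 CPM in MYC controls. Cholangiocyte markers of MYC livers summed to 3.08 to 7.83 CPM, against 12.9 to 16.7 CPM in those controls. Sinusoidal endothelial markers summed to 250 to 391 CPM in MYC livers, against 528 and 535 CPM in MYC controls, with 1 of 8 called lower. In the YAP model they summed to 454 and 523 CPM at 2 weeks, with 1 higher. At 4 weeks they summed to 205 to 492 CPM with 0 called, against 351 and 389 CPM in YAP controls. The 6 vascular endothelial markers summed to 212 and 275 CPM at 2 weeks, with 1 higher, and 110 to 164 CPM at 4 weeks. Their sums were 141 and 164 CPM in YAP controls, 111 to 168 CPM in MYC livers and 169 and 179 CPM in MYC controls. Hepatocyte markers summed to 23000 to 45900 CPM in MYC livers, against 94900 and 95500 CPM, with 4 of 8 lower, and the 5 erythroid markers to 226 to 1400 CPM, against 66 and 83.3 CPM, with 2 higher. Kupffer cell and macrophage markers summed to 406 to 663 CPM in MYC livers, against 212 and 221 CPM, with 3 of 8 higher. In 4-week replicate 1, quiescent stellate and cholangiocyte sums were low. Fibrillar collagens there summed to 157 CPM, against 869 and 425 CPM in the other 4-week libraries, while Col4a3 was at its highest level of that group. Without that library 18 collagens rose and 2 fell at 4 weeks, among them 5 fibrillar genes that rose.

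Of the FACIT collagens, Col12a1 and Col16a1 rose at both times. Col12a1 (chromosome 9, 79598991 to 79718831), which coats type I fibrils in tissues under load, was at 41.4 and 62 CPM after 2 weeks and 40.5, 32.2 and 37.1 CPM after 4 weeks, against 2.99 and 6.15 CPM in YAP controls. All induced libraries were far above the controls. It rose by 3.5 ± 0.35 at 2 weeks (adjusted p = 0.000111) and 3.0 ± 0.33 at 4 weeks (adjusted p = 0.000129), the smallest adjusted p among the collagens at each time. With MYC it was at 6.01, 4.2 and 4.29 CPM, against 10.2 and 8.49 CPM in MYC controls. It fell by a log2 fold change of -0.94 ± 0.29 (adjusted p = 0.0441), which missed the threshold without MYC replicate 2 or 3 (0.132 and 0.116) and without MYC control replicate 1 or 2 (0.244 and 0.122). Col16a1 was at 10.2 and 22 CPM after 2 weeks and 10.7, 30.5 and 30.9 CPM after 4 weeks, against 3.38 and 5.4 CPM in YAP controls, without overlap. It rose by 1.88 ± 0.57 at 2 weeks (adjusted p = 0.032, and 0.179, 0.0834 and 0.22 without YAP control replicate 1, YAP control replicate 2 or 2-week replicate 2) and 2.45 ± 0.55 at 4 weeks (adjusted p = 0.00693, and 0.0718 without YAP control replicate 1). Col14a1, a FACIT member expressed by resting stellate cells and fibroblasts, was at 65.3 and 63.9 CPM after 2 weeks and 22.5, 93.2 and 43.8 CPM after 4 weeks, against 89.1 and 98.1 CPM in YAP controls. The 2-week libraries were below the controls and 4-week replicate 2 lay among them, and Col14a1 was not called (adjusted p = 0.462 at 2 weeks and 0.19 at 4 weeks). With MYC Col14a1 was at 129, 79.1 and 82.2 CPM, against 166 and 188 CPM in MYC controls, lower in all 3 without passing (adjusted p = 0.212). Col20a1 stayed at or under 2.18 CPM in every library and was not called.

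Of the 5 tested type VI collagens 1 rose at each YAP time and 0 were called with MYC by edgeR or DESeq2, where 0 reached an unadjusted p under 0.05. The riser, Col6a5, was at 2.26 and 3.16 CPM after 2 weeks and 1.46, 7.96 and 4.06 CPM after 4 weeks, against 0.29 and 0.424 CPM in YAP controls. It rose by 2.91 ± 0.89 at 2 weeks (adjusted p = 0.0317) and 3.63 ± 0.86 at 4 weeks (adjusted p = 0.00821). The 2-week call was lost with any library left out (adjusted p = 0.157 and 0.113 when the first or the second YAP control was dropped, 0.0528 and 0.118 when 2-week replicate 1 or 2 was), and the 4-week call without either YAP control (0.071 and 0.0529). Col6a3, the long chain of the type VI filament, was at 42.7 and 64.9 CPM after 2 weeks and 19.4, 159 and 91.1 CPM after 4 weeks, against 16.6 and 30.5 CPM in YAP controls. The 4-week replicate 1 lay among the controls, and Col6a3 was not called (log2 fold change 1.19 ± 0.75, adjusted p = 0.268 at 2 weeks and 1.93 ± 0.72, adjusted p = 0.0668 at 4 weeks), but was without that library (2.41, adjusted p = 0.0018). Col6a1, another chain of the filament, was at 22.1 and 31.8 CPM after 2 weeks and 12.2, 43.2 and 23.8 CPM after 4 weeks, against 20.6 and 23.8 CPM in YAP controls, with overlap. Its adjusted p was 0.702 at 2 weeks and 0.688 at 4 weeks. The filament chain Col6a2 was not called in either YAP comparison (adjusted p = 0.524 and 0.347), nor was Col6a6 (adjusted p = 0.509 and 0.988).

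Col18a1 (chromosome 10, 77052178 to 77166548), the source of the fragment endostatin and a collagen that hepatocytes are known to make, was the most abundant collagen in every library. It was at 1860 and 1050 CPM after 2 weeks and 1540, 900 and 923 CPM after 4 weeks, against 1370 and 1470 CPM in YAP controls, and the groups overlapped. The adjusted p was 0.957 at 2 weeks and 0.407 at 4 weeks. With MYC it was at 1090, 871 and 855 CPM, against 1450 and 1520 CPM in MYC controls, lower in all 3 without passing (adjusted p = 0.147). Per exon length it made up 36.6 to 75.1% of all collagen transcripts. Its relative Col15a1 (chromosome 4, 47208161 to 47313167), a collagen of capillary basement membranes, was at 1.78, 2.8 and 2.78 CPM in MYC livers, against 26 and 22.4 CPM in MYC controls. The MYC libraries were far below, and it fell by the largest amount among the collagens called with MYC (log2 fold change -3.3 ± 0.78, adjusted p = 0.0193). The call was lost without MYC replicate 2 or 3 (adjusted p = 0.0621 and 0.0509) or MYC control replicate 1 or 2 (0.1 and 0.0801). In the YAP model Col15a1 was at 9.62 and 16 CPM after 2 weeks and 3.3, 38.8 and 27.6 CPM after 4 weeks, against 16.1 and 29.5 CPM in YAP controls, without a call (adjusted p = 0.486 and 0.979).

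The balance between fibrillar and type IV collagens was read per exon length. The fibrillar sum over the type IV sum was 0.498 and 0.822 after 2 weeks and 0.435, 1.49 and 1.04 after 4 weeks, against 0.758 and 0.765 in YAP controls. In MYC livers it was 1.11, 0.973 and 0.9, against 0.767 and 0.714 in MYC controls. The YAP values fell on both sides of their controls, and all MYC values were above theirs. The fibrillar sum includes Col27a1, at 87.5, 89.2 and 101 CPM in MYC livers, against 56.8 and 66 CPM in MYC controls (not called). Col1a1, Col1a2, Col3a1, Col5a1 and Col5a2 together summed to 276, 209 and 284 CPM in MYC livers, against 375 and 424 CPM. The higher MYC ratio thus did not come with a higher sum of these scar and type V chains. As a share of raw counts, collagens made up 0.264 and 0.273% of counts after 2 weeks and 0.24, 0.338 and 0.265% after 4 weeks, against 0.138 and 0.157% in YAP controls. They took 0.182, 0.176 and 0.204% in MYC livers, against 0.21 and 0.242% in MYC controls. On the TMM scale used for all other levels, the collagen sum was 2700 and 2330 CPM after 2 weeks and 2150, 2700 and 1970 CPM after 4 weeks, against 1860 and 2120 CPM in YAP controls. The 4-week libraries then overlapped the controls, and the 2-week libraries stood above them by less than in the raw share. In MYC livers the sum was 1920, 1550 and 1750 CPM, against 2640 and 2890 CPM in MYC controls, without overlap.

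**Figure D4:**
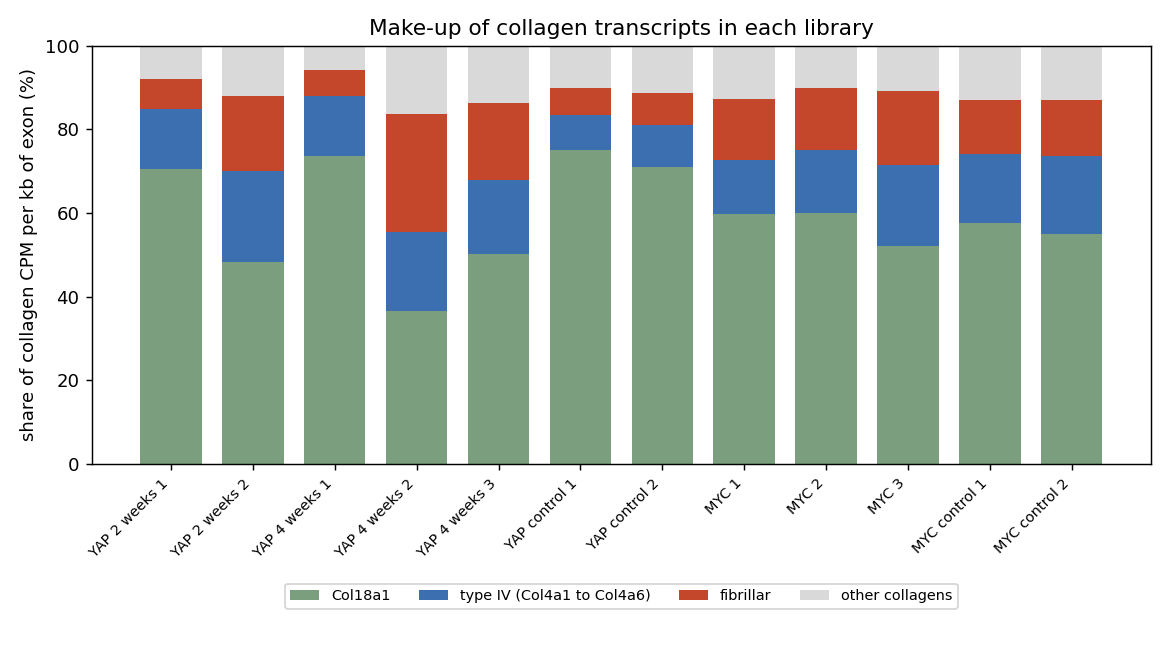
Share of collagen CPM per kb of exon taken by Col18a1, the 6 type IV genes, the fibrillar genes and all other collagens in each of the 12 libraries, stacked to 100%. Col18a1 takes 73.6% in 4-week YAP replicate 1 but 36.6% in replicate 2, where fibrillar genes reach 28.2%.

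Of the 4 transmembrane collagens 0 passed at 2 weeks by edgeR, while 3 had an unadjusted p under 0.05, as did 7273 of all 17964 tested genes. At 4 weeks 2 rose and 1 fell. Col23a1 was at 2.47, 2.18 and 2.61 CPM at 4 weeks, against 0.676 and 0.424 CPM in YAP controls, and rose by 2.11 ± 0.58 (adjusted p = 0.0163, and 0.0534 and 0.107 when the first or the second YAP control was dropped). Col25a1, a collagen known from amyloid plaques and motor nerve contacts, was at 0, 0.344 and 0.222 CPM at 4 weeks, against 2.41 and 4.13 CPM in YAP controls. It fell by a log2 fold change of -4.03 ± 1.13 (adjusted p = 0.0186, and 0.0994 and 0.0542 without YAP control replicate 2 or 4-week replicate 3). Col17a1, the hemidesmosome collagen of epithelia, was at 0.127, 0.687 and 0.667 CPM at 4 weeks and had no counts in YAP controls, which makes it at least 1.63-fold higher against a floor of 3 counts per library. It was called at 4 weeks (adjusted p = 0.0414), but not without YAP control replicate 1 (0.149) or 2 (0.141) or 4-week replicate 2 (0.0787) or 3 (0.0853), and was singled out after its values were seen. Col13a1, a collagen of cell contacts, was at 4.7, 2.52 and 4.81 CPM in MYC livers, against 16.3 and 16.4 CPM in MYC controls. It fell by a log2 fold change of -2.02 ± 0.5 (adjusted p = 0.0198, and 0.0727, 0.101 and 0.0966 without MYC replicate 2, MYC control replicate 1 or MYC control replicate 2). The network collagens Col8a1, Col8a2 and Col10a1 and the anchoring collagen Col7a1 stayed at or under 2 CPM in every library and were not called in any comparison with controls.

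The number of called collagens changed with the libraries in the fit. The share of all tested genes is not given for these omissions, so the changes cannot be read as particular to collagens. At 2 weeks 5, 5, 9 and 4 collagens were called higher without YAP control replicate 1, YAP control replicate 2, 2-week replicate 1 and 2-week replicate 2, and 0, 0, 1 and 0 lower. At 4 weeks 5, 6, 18, 10 and 11 were called higher when YAP control replicate 1, YAP control replicate 2 or 4-week replicate 1, 2 or 3 was dropped, and 3, 1, 2, 3 and 1 lower. With MYC 7, 2, 5, 1 and 1 were called lower without MYC replicates 1, 2 and 3 and MYC control replicates 1 and 2. Calls that survived every single omission were those of Col4a3, Col4a4, Col4a5 and Col12a1 at 2 weeks, Col4a3, Col4a5, Col5a3 and Col12a1 at 4 weeks, and Col4a3 with MYC. With the sex pattern in the model, the 2-week comparison sets replicate 1 alone against the controls. This is close to the omission of 2-week replicate 2 and is no further check of the 2-week calls. The 4 calls at 4 weeks were lost in that model (adjusted p = 0.0636 for Col4a3, 0.0977 for Col4a5 and 0.0507 for Col12a1, with the call of Col5a3 lost too).

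No collagen was called between 4 and 2 weeks of YAP. By edgeR and by DESeq2 the count was 0 of 35, and edgeR called 0.0612% of all tested genes. An unadjusted edgeR p under 0.05 was reached by 4 of 35 collagens and by 1247 of all 17964 tested genes. Without 4-week replicate 1 a single fibrillar gene was called higher at 4 weeks.

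The MYC and 4-week YAP effects were compared by testing the difference of the log2 fold changes. It was negative for 6 of 35 collagens and positive for 0, or 17.1% called, where 4.33% of all tested genes were lower, 3.15% higher and 7.48% called in all. DESeq2 called 15 lower and 1 higher, and the share of all tested genes that it called is not given. By edgeR 2 collagens were higher at an unadjusted p under 0.05. Total-count scaling gave 7 lower and 0 higher, where 7.0% and 1.5% of all tested genes were called. The 6 called by edgeR were Col4a2, Col4a3, Col4a4, Col4a5, Col12a1 and Col16a1, thus 4 of 6 type IV collagens and 0 of 10 fibrillar collagens. Of the 10 fibrillar collagens 7 had an unadjusted edgeR p under 0.05, as did 4405 of all 17964 tested genes. The difference was largest for Col4a5 (-6.24 ± 0.72, adjusted p = 0.00148) and Col4a3 (-5.04 ± 0.54, adjusted p = 0.000802). With the sex pattern in the model, the calls of Col4a3 and Col12a1 were kept (adjusted p = 0.0373 and 0.0477) and those of Col4a5, Col4a4, Col4a2 and Col16a1 were lost (0.0505, 0.166, 0.25 and 0.402). For Col1a1 the difference was -2.92 ± 0.91 and did not pass (adjusted p = 0.0852). Without 4-week replicate 1 the edgeR count was 15, with 5 fibrillar genes among them, and 5 type IV genes. The 0 against 4 calls in these classes thus did not hold without that library. The classes of the DESeq2 calls are not given. The models also differ in age at collection and in the sex pattern of the libraries, which cannot be told apart from the model.

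**Figure D5:**
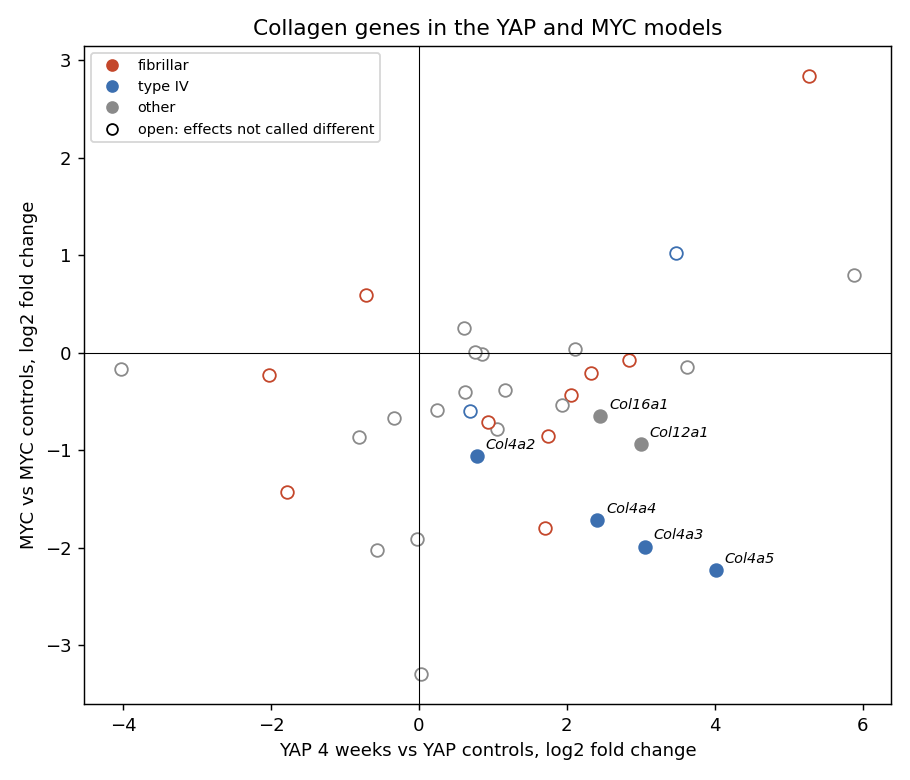
Log2 fold change of the 35 tested collagens at 4 weeks of YAP (x axis) and with MYC (y axis), each against its own controls, coloured by class; filled, named points have an edgeR adjusted p under 0.05 for the difference between the effects. Col4a3, Col4a4 and Col4a5 lie to the lower right, higher with YAP and lower with MYC.

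Genes that process, bind or accompany collagens were counted in 7 lists, to be read against all tested genes, of which 15.1% rose and 12.7% fell at 2 weeks, 18.1% and 15.7% at 4 weeks, and 9.76% and 8.54% with MYC. With the sex pattern in the model, the 4-week calls of P3h2, Sparc, Pcolce, Lox, Mmp19, Prelp and Tgfb1 were lost (adjusted p = 0.0905, 0.141, 0.0737, 0.0805, 0.0772, 0.106 and 0.119), and those of Timp2, Mmp14, Ddr1, Nid1, Lamb2 and Agrn were kept. Among genes for collagen folding and secretion, 5 of 25 tested rose and 7 fell at 2 weeks, 6 rose and 7 fell at 4 weeks, and 1 rose and 3 fell with MYC. P3h2, a prolyl 3-hydroxylase that acts on type IV collagen, averaged 30.0 ± 6.42 CPM at 2 weeks and 26.7 ± 12.2 CPM at 4 weeks, against 1.66 ± 1.25 CPM in YAP controls (SD, n = 2, 3 and 2), and rose at both times (adjusted p = 0.000767 and 0.000614). Sparc, a collagen-binding matricellular protein, averaged 155 ± 39.9 and 220 ± 89.8 CPM, against 39.1 ± 7.8 CPM, and also rose (adjusted p = 0.00346 and 0.000719). Among genes for trimming and crosslinking, 3 of 12 rose at 2 weeks and 5 at 4 weeks, and 1 fell with MYC. Pcolce, which speeds the trimming of procollagen, averaged 74.7 ± 3.9 CPM at 2 weeks and 55.6 ± 22.1 CPM at 4 weeks, against 8.17 ± 1.04 CPM in YAP controls. The crosslinking enzyme Lox averaged 8.46 ± 3.06 and 6.7 ± 1.62 CPM, against 0.308 ± 0.163 CPM. Both rose at both times (adjusted p = 0.000275 and 0.000346 for Pcolce, 0.000523 and 0.000497 for Lox).

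Among genes for collagen breakdown and its inhibitors, 5 of 17 rose and 1 fell at 2 weeks, 7 rose and 1 fell at 4 weeks, and 4 rose with MYC. Timp2, an inhibitor of matrix metalloproteinases, averaged 222 ± 0.108 CPM at 2 weeks and 196 ± 95.0 CPM at 4 weeks, against 17.0 ± 3.05 CPM in YAP controls. Mmp14, a membrane-bound collagenase, averaged 67.3 ± 9.5 and 88.7 ± 23.7 CPM, against 16.6 ± 2.97 CPM. The inhibitor and the collagenase thus rose together (adjusted p = 0.00014 and 0.000106 for Timp2, 0.000333 and 8.08e-05 for Mmp14), and Mmp19 was the member that fell, at 23.6 ± 3.52 and 19.7 ± 2.41 CPM, against 64.0 ± 6.79 CPM (adjusted p = 0.000695 and 0.000122). Mmp14 was also called higher with MYC (log2 fold change 0.74, edgeR adjusted p = 0.0405), a call lost in 4 of 5 omissions. Of 11 collagen receptors, 3 rose at 2 weeks, 6 at 4 weeks and 3 with MYC. Ddr1, a receptor tyrosine kinase for collagen, averaged 40.2 ± 19.0 CPM at 2 weeks and 83.9 ± 23.4 CPM at 4 weeks, against 1.49 ± 0.902 CPM in YAP controls (adjusted p = 0.000214 and 6.06e-05), and 1.48 ± 0.59 CPM in MYC livers, against 1.62 ± 0.202 CPM in MYC controls (adjusted p = 0.905).

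Of 22 basement membrane partners of type IV collagen, 9 rose and 3 fell at 2 weeks, 10 rose and 3 fell at 4 weeks, and 2 rose and 3 fell with MYC. Nid1, which links laminin to type IV collagen, averaged 626 ± 24.0 CPM at 2 weeks and 451 ± 217 CPM at 4 weeks, against 22.8 ± 3.37 CPM in YAP controls, and rose by 4.78 ± 0.4 and 4.3 ± 0.38 (adjusted p = 5.79e-05 and 4.79e-05). The laminin chain Lamb2 averaged 130 ± 5.04 and 142 ± 27.5 CPM, against 9.03 ± 2.81 CPM (adjusted p = 6.99e-05 and 3.71e-05), and the proteoglycan Agrn 187 ± 41.6 and 258 ± 69.6 CPM, against 39.5 ± 3.96 CPM (adjusted p = 0.000215 and 5.76e-05). Lamb2 was also called higher with MYC (log2 fold change 0.98, edgeR adjusted p = 0.037), a call lost in 4 of 5 omissions. The difference between the MYC and 4-week YAP effects was negative for 9 of the 22 and positive for 0, with the calls of Lamb2 and Agrn among them lost with the sex pattern in the model (adjusted p = 0.0822 and 0.0914). In the list of fibril-associated proteoglycans and glycoproteins, 5 of 25 rose at 2 weeks, 6 at 4 weeks and 1 with MYC, with Prelp, a proteoglycan that ties collagen to basement membranes, at 871 ± 84.6 and 571 ± 324 CPM, against 83.6 ± 14.7 CPM in YAP controls (adjusted p = 0.000841 and 0.00138). The gene that rose with MYC was Thbs1 (log2 fold change 4.91, edgeR adjusted p = 0.0016), which was also called higher at 2 and 4 weeks of YAP (0.0353 and 0.014). Of 26 fibrogenic ligands, receptors and signalling genes, 7 rose and 1 fell at 2 weeks, 10 rose and 2 fell at 4 weeks, and 2 rose and 3 fell with MYC. Tgfb1, the main fibrogenic cytokine of liver, averaged 56.6 ± 3.92 CPM at 2 weeks and 37.2 ± 4.32 CPM at 4 weeks, against 13 ± 2.43 CPM in YAP controls, and 37.4 ± 8.28 CPM in MYC livers, against 14.4 ± 1.83 CPM in MYC controls. It rose in each comparison (adjusted p = 0.000211, 0.00065 and 0.00239).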

How the data were processed

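The data are 12 RNA-seq libraries of mouse total liver RNA in 5 groups. The authors deposited raw counts of reads per gene. Per the submitters' processing notes, Trim Galore 0.4.1, HISAT2 2.1.0, featureCounts 1.6.3 and DESeq2 1.20.0 were used with GRCm38; the strand setting and annotation release are not given in the sources used here, so reads of overlapping genes on opposite strands cannot be assigned with certainty. Gene positions and exon lengths came from GENCODE vM21.

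From these counts, edgeR 4.0.16 in R 4.3.3 (filterByExpr, TMM factors, robust quasi-likelihood fit, 1 mean per group, 7 residual degrees of freedom) gave log2 fold changes, SE and p-values with Benjamini-Hochberg adjustment over 17964 genes, and 0.05 was the threshold. The common biological coefficient of variation was 31.5%. The procedure was tested on simulated data. Genes with 0 counts in a whole group were set against a floor of 3 counts per library, which covers counting error only.

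The collagens and all lists were chosen with earlier results of these data known. Values in every library were given for 11 chosen genes and, per class and comparison, for up to 3 called collagens with the largest change that reached 2 CPM. Up to 3 called genes of each pathway list were named.

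Alternatives were other scaling (size factors, total counts), no filter, DESeq2 1.42.0, only the groups compared, a replicate block, a sex pattern term and leaving out each library.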

Additional observations from a re-analysis of the deposited data

Results flagged for a closer look

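For 6 collagens the effect of MYC and that of 4 weeks of YAP differed by edgeR's test of the difference (log2 fold change with MYC minus log2 fold change with YAP, each against its own controls). The difference was -6.24 for Col4a5, -5.04 for Col4a3, -4.13 for Col4a4 and -1.84 for Col4a2, all type IV genes that rose with YAP and fell with MYC. It was -3.95 for Col12a1, which also rose with YAP and fell with MYC, and -3.11 for Col16a1, which rose with YAP and was not called with MYC. The difference for Col4a3, Col4a4, Col4a5 and Col12a1 kept its call with each library left out in turn. With the sex pattern of the libraries in the model, the difference kept its call for Col4a3 (adjusted p = 0.0373) and Col12a1 (0.0477) and lost it for Col4a5 (0.0505), Col4a4 (0.166), Col4a2 (0.25) and Col16a1 (0.402). That of Col4a2 was lost without YAP control replicate 1 (adjusted p = 0.074) or MYC control replicate 2 (0.0738), and that of Col16a1 in 7 of 10 omissions.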

How the results depend on the processing

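Counts of called collagens are given here as higher and lower. With the sex pattern in the model they were 0 and 0 at 4 weeks, and 2 lower for the difference between MYC and 4-week YAP effects. At 2 weeks that model leaves replicate 1 alone against the controls. Same-numbered libraries shared only a number (correlations of their deviations from group means between -0.14 and 0.172), and with the replicate number as a block 10 and 1 were called at 2 weeks, 11 and 1 at 4 weeks, 0 and 6 with MYC, and 1 and 7 for the difference. Total-count scaling gave 0 lower at 2 weeks and 4 lower with MYC. Without a filter on low counts 1 was lower at 2 weeks and 1 higher for the difference. With only the groups compared in the fit, 4 were lower at 2 weeks and 1 higher with MYC. DESeq2 gave 1 higher and 15 lower for the difference. Leaving out each library gave 4 to 9 higher and 0 to 1 lower at 2 weeks, 5 to 18 and 1 to 3 at 4 weeks, 0 and 1 to 7 with MYC, 0 to 1 and 0 between the YAP times, and 0 to 1 and 4 to 15 for the difference. The causes of these changes were not tested, and an omission also leaves fewer libraries in the fit. Apart from total-count scaling, the share of all tested genes called is not given for these settings. No named collagen or pathway gene with a call or a log2 change of at least 1 reversed its direction. Smaller changes without a call were less stable. Of 33 such pairs of a collagen and a comparison, 17 changed sign in at least 1 alternative. With 2 or 3 libraries per group and levels near 1 CPM for several collagens, small changes were not detectable.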
